A study of Mus musculus with 6 samples.

Results

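Amino acid transporters are membrane proteins that move amino acids between the medium, the cytosol and the lysosome. Here they are the genes of the SLC1, SLC7, SLC36, SLC38 and SLC43 families together with SLC3A1, SLC3A2, SLC6A6, SLC6A9, SLC6A15 and SLC6A17, taken by a rule on symbols. The rule was set with earlier results of these data known. Of 20323 gene rows in the deposited table, 45 met this rule. One of them, SLC7A6OS, is named for lying opposite to SLC7A6 and is not a transporter, which leaves 44 transporter genes. They were measured by RNA-seq in RFB, a fibroblast line from kidney, in 6 libraries. CXCL10 is a ligand of the chemokine receptor CXCR3. The treatment label of 3 libraries is TGF-β+CXCL10, at a volume given in the titles as 5 µl with no concentration. The treatment of the other 3, titled NC, is TGF-β alone. All 6 libraries thus come from cells with TGF-β, the cytokine that drives fibroblasts toward a fibrotic state, and none shows the cells without it. The series' design text speaks of a SUV39H1 knockdown, but no label of these 6 libraries names one. The labels name the organism as mouse, while the rows carry human Ensembl identifiers and human symbols, so each level is one on a human gene model.

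Amino acid carriers fall into classes by what drives them and by what they carry. Exchangers such as SLC7A5 and SLC1A5 swap one amino acid for another, sodium-coupled carriers such as SLC38A2 load the cell against a gradient, and uniporters such as SLC43A1 let amino acids pass down it. Several SLC7 proteins reach the cell surface only when bound to a heavy chain, SLC3A2 or SLC3A1. In fibroblasts this machinery supplies glycine and proline for collagen, cystine for glutathione, and leucine and arginine for signalling to the growth kinase mTOR.

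The 6 libraries held between 12838106 and 15587409 counts, and 0.609% to 0.638% of them lay on the 45 rows. A total of 39 rows had a count in some library and 32 passed the filter on low counts (edgeR filterByExpr) and were tested with 11970 genes in all. The fibroblast label was met by its markers: all 8 listed, among them COL1A1, COL3A1, PDGFRB and DCN, passed the filter. Their summed level was 50191 to 54491 CPM with CXCL10 and 52535 to 60014 CPM without it, and in the paired fit described below VIM and THY1 rose while LUM, DCN and COL1A1 fell. Of 9 tubule markers LRP2, CDH16, UMOD and SLC34A1 had 0 counts. The summed level of the tubule list was 19.4 to 21.3 CPM with CXCL10 and 21.2 to 22.7 CPM without it. AQP1, a water channel that endothelium also expresses, and PAX8, a renal transcription factor, made up most of that sum: AQP1 averaged 11.4 ± 0.969 CPM with CXCL10 and 12.8 ± 1.48 CPM without it, and PAX8 7.66 ± 1.21 CPM with CXCL10 and 6.10 ± 0.316 CPM without it (paired log2 changes -0.16 and 0.32, adjusted p = 0.422 and 0.249). CDH1, an epithelial cadherin of the same list, averaged 0.703 ± 0.638 CPM with CXCL10 and 2.41 ± 1.13 CPM without it (paired log2 change -1.89, adjusted p = 0.00898), and its part in the results below was not tested. Endothelial markers summed to 3.02 to 3.15 CPM with CXCL10 and 2.55 to 3.17 CPM without it, and leukocyte markers to 39.3 to 45.5 CPM with CXCL10 and 37.6 to 43.7 CPM without it, nearly all of it CD68, with CD3E at 0 counts.

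In level, the transporter RNA of these cells was dominated by 4 genes. By FPKM, a level scaled to transcript length and library size, SLC7A5 stood at 369 on average over the 6 libraries, SLC38A2 at 337, SLC3A2 at 273 and SLC1A5 at 256. These 4 carried 68.9% to 70.9% of all transporter counts in each library, and their mean FPKM exceeded that of 98.6% to 99.1% of the 15691 genes with a count. They are the leucine exchanger LAT1, the sodium-coupled carrier SNAT2, the heavy chain 4F2hc (CD98) and the glutamine exchanger ASCT2. SLC7A5 lay above SLC38A2 in 5 of 6 libraries with overlapping ranges. SLC3A2 lay above SLC1A5 in 6 of 6 libraries, though their ranges overlapped, and SLC38A2 lay above SLC3A2 in 6 of 6 libraries with no overlap.

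Below a wide gap followed SLC7A1 at 41.7 FPKM, SLC38A1 at 41.1 and SLC38A10 at 40.3, whose ranges overlapped. In all, 16 rows averaged over 10 FPKM, 12 lay between 1 and 10, and 11 with a count lay under 1. The share of rows over 10 FPKM was 35.6%, against 33.3% of all genes with a count. From SLC7A11 (31.3 FPKM) down to SLC6A6 (13.3 FPKM) each gene overlapped its nearest neighbour in the order, while the ends of this stretch lay apart (28.6 to 34.9 FPKM for SLC7A11 and 10.8 to 15.3 FPKM for SLC6A6). Nearest neighbours also overlapped from SLC36A1 (9.91 FPKM) down to SLC7A6OS (4.19 FPKM), whose own ranges lay apart, and below them SLC6A15 (2.09 FPKM) stood apart.

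**Figure D1:**
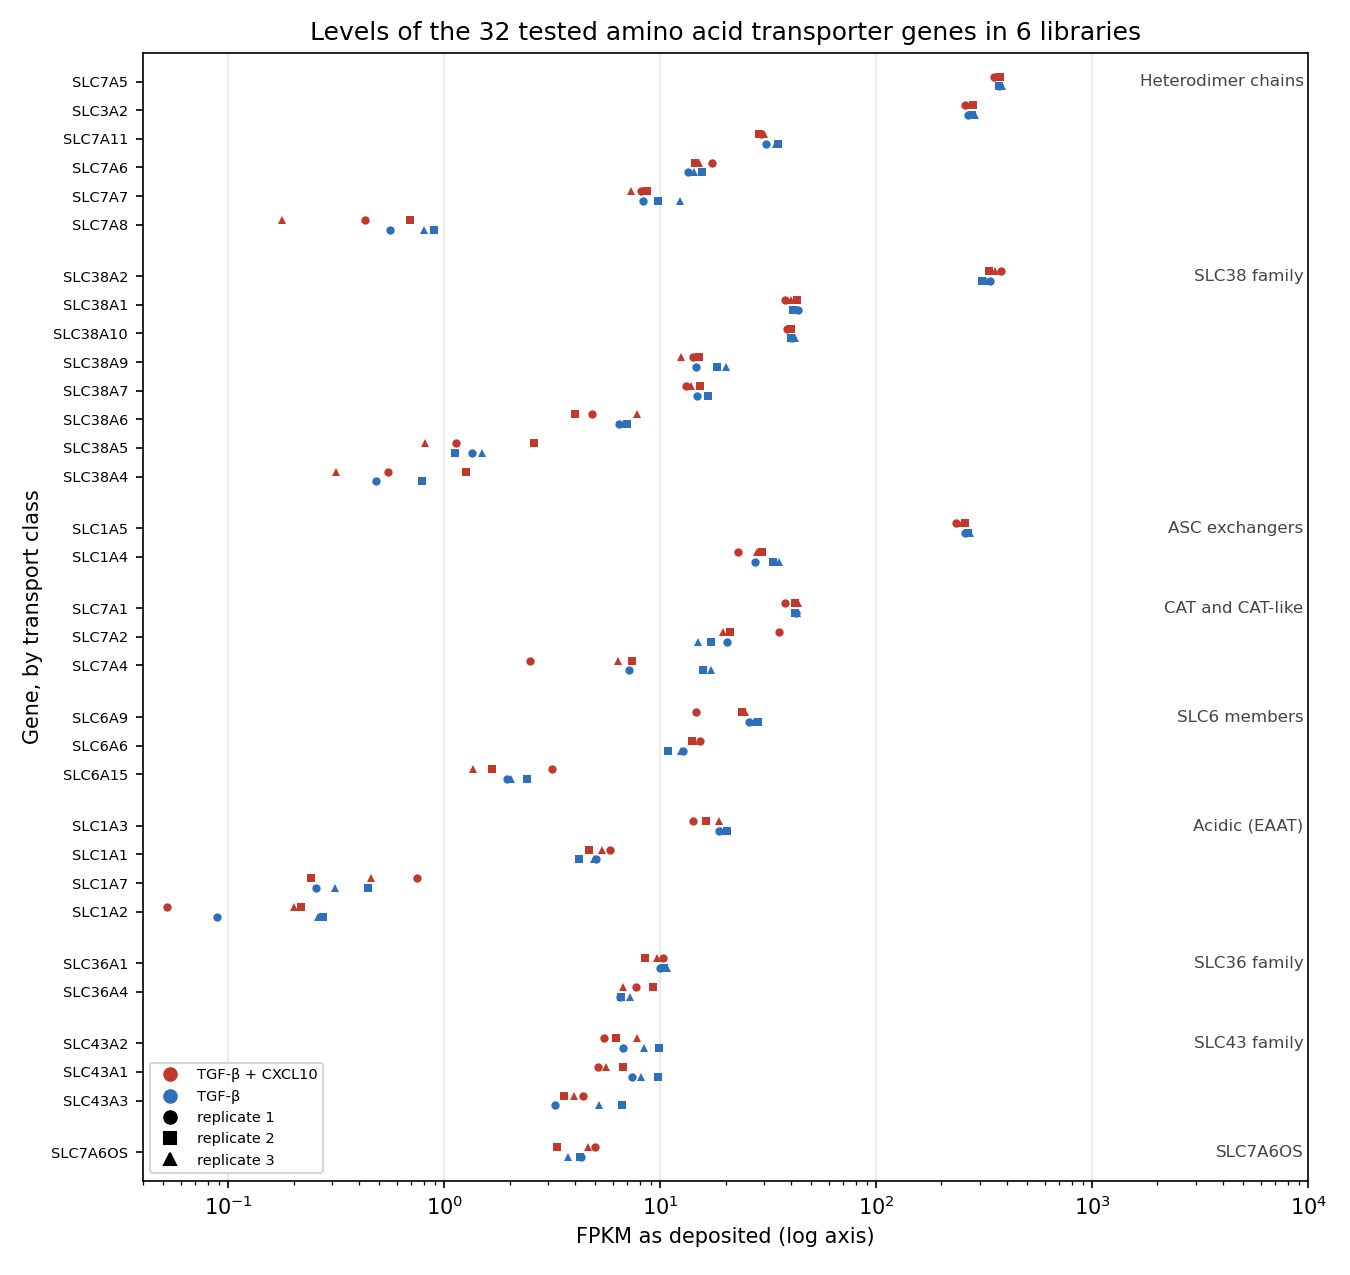
FPKM of the 32 tested transporter rows (log axis) in each library, by class. Red points are the 3 TGF-β+CXCL10 libraries and blue points the 3 TGF-β libraries, with marker shapes for the replicate number. SLC7A5, SLC38A2, SLC3A2 and SLC1A5 lie apart on the right, and red and blue points mostly overlap.

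The comparison asks what CXCL10 adds to TGF-β in the RNA of these transporters. Of the 4 most abundant genes, SLC7A5, SLC3A2 and SLC1A5 were not called, and the calls were SLC38A2 and 7 less abundant genes. With libraries paired by their replicate number, SLC7A2, SLC6A6 and SLC38A2 were higher with CXCL10, and SLC7A4, SLC43A1, SLC6A9, SLC43A2 and SLC1A4 were lower. Apart from SLC7A4, which fell to 0.412 of its level, these changes were small, between 0.6997 and 1.43 of the level with TGF-β alone.

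These calls rest on the pairing, which no label states. Without it, edgeR's quasi-likelihood test with Benjamini-Hochberg adjustment over all 11970 genes called 0 of the 32 (0% of all genes; smallest adjusted p of a member 0.161). At an unadjusted p under 0.05 it had 10 of the 32, or 31.2%, with 3 of them higher and 7 lower, beside 20.5% of all genes in either direction. DESeq2 without pairing also called 0 of the 32, beside 1.44% of all genes higher and 1.36% lower. With the replicate number as a block, 3 members were called higher, beside 9.71% of all genes, and 5 lower, beside 8.04%. Together these are 25.0% of the members and 17.7% of all genes, a share not far from the background. Scaling by library totals alone changed the paired split to 2 higher and 7 lower among members, and to 7.33% higher and 11.4% lower among all genes. With pairing, RLE size factors gave 3 and 5 members (10.2% and 8.09% of all genes), and DESeq2 3 and 2 (5.71% and 3.79%). On log2(FPKM + 1), limma-trend with pairing called 0 members higher and 2 lower (2.82% and 2.94%). Without the replicate 1 libraries the paired counts were 3 and 7 (12.7% and 10.9%), without replicate 2 they were 2 and 4 (5.66% and 4.67%), and without replicate 3 they were 2 and 2 (4.46% and 3.02%). By the authors' deposited table, 0 of the members passed an adjusted p of 0.05, beside 0.714% of genes higher and 0.618% lower, and the smallest adjusted p of a member was 0.0913, for SLC6A6. In bulk RNA, fewer cells with a transcript and less of it per cell cannot be told apart.

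The 32 changes ranged from -1.28 to 0.55 in the paired fit, with a median of -0.05, beside a median of -0.01 over all genes. The median size of a change, whatever its sign, was 0.15 among members and 0.16 among all genes. Between same-numbered libraries 14 members were lower with CXCL10 in all 3 pairs, or 43.8%, beside 25.5% of all genes, and 5 were higher in all 3, or 15.6%, beside 24.7%.

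Replicate 1 stood apart from replicates 2 and 3 in both groups. Counts of CXCL10 replicate 1 differed from those of the other CXCL10 libraries by 8.74 and 9.14 times the sampling noise (chi-square per degree of freedom), against 2.80 between replicates 2 and 3. Those of TGF-β replicate 1 differed from the other TGF-β libraries by 17.0 and 18.2 times, against 3.10. Without CXCL10 replicate 1 and with no pairing, 0 members were called, and the change was 0.23 in place of 0.55 for SLC7A2, -0.18 in place of -0.35 for SLC6A9 and -0.11 in place of -0.22 for SLC1A4. Without TGF-β replicate 1 and with no pairing, edgeR called 3 members higher and 5 lower, beside 10.7% and 8.61% of all genes, and leaving out any other single library gave 0 members. Of these 8 genes 6 were also paired calls; SLC7A11 (adjusted p = 0.0440) and SLC7A7 (0.0354) came in, and SLC6A9 and SLC1A4 dropped out. For all 8 paired calls TGF-β replicate 1 differed from the mean of the other TGF-β libraries in the direction of the CXCL10 change, by -1.17 (log2) for SLC7A4, -0.41 for SLC43A2 and 0.39 for SLC7A2, and by 0.13 for SLC38A2. It lay within the range of the CXCL10 libraries for 22 of the 32 members, or 68.8%, beside 52.0% of all genes. What part this has in the changes was not tested.

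**Figure D2:**
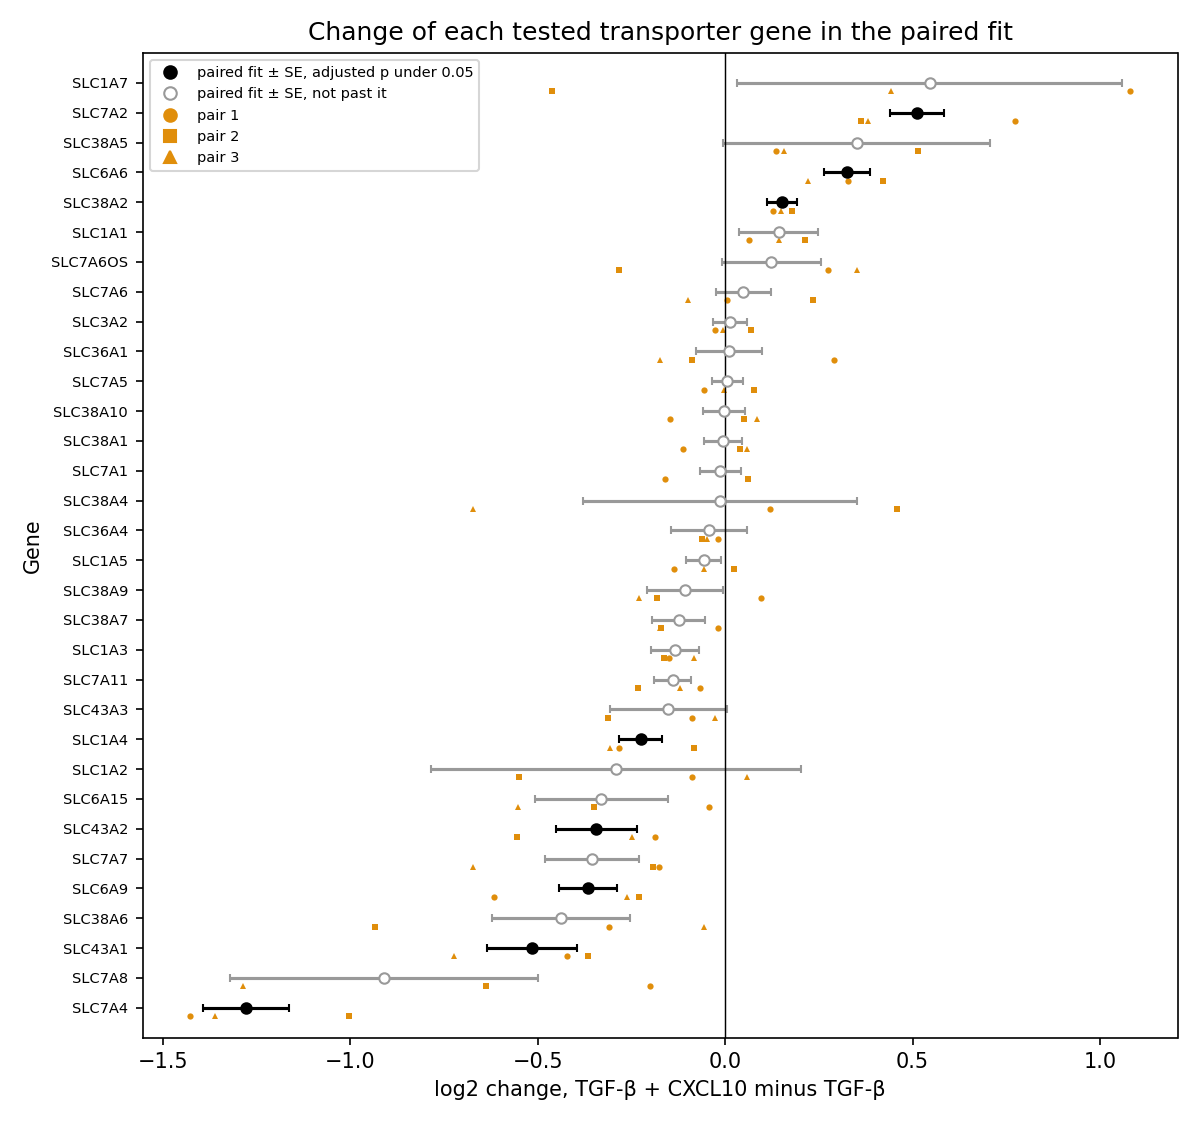
Log2 change of the 32 tested rows, TGF-β+CXCL10 minus TGF-β, in the paired fit. Circles with bars are the estimate ± SE, filled where the adjusted p was under 0.05, and small orange markers are the differences of the 3 same-numbered pairs. SLC7A4 lies farthest to the left at -1.28, and the estimates of SLC7A5 and SLC3A2 lie at 0.01 and 0.01.

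Among the heterodimeric carriers, edgeR called 0 of 6 tested chains with or without the pairing, and the most abundant chains stood at near-equal levels. With or without the pairing, 3 of 6, SLC7A7, SLC7A8 and SLC7A11, had an unadjusted p under 0.05, each with a lower estimate with CXCL10. Without the pairing, 20.5% of all genes had such a p in either direction. SLC7A5 (ENSG00000103257), the LAT1 light chain that brings in leucine and other large neutral amino acids, had 1618, 1730.0 and 1711 scaled CPM in the TGF-β+CXCL10 libraries, against 1682, 1641 and 1713 in the TGF-β libraries. Its groups overlapped fully, and the paired log2 change was 0.01 (SE 0.04, adjusted p = 0.948). Under library totals alone the estimate turned negative (-0.037), within its error. SLC7A5 has partial pseudogene copies in the human genome, and how reads shared with them were counted is not given. SLC3A2 (ENSG00000168003), the heavy chain that anchors LAT1 and xCT in the plasma membrane, had 493, 536 and 531 scaled CPM in the TGF-β+CXCL10 libraries, against 502, 510.2 and 533 with TGF-β alone. It too overlapped between groups (paired log2 change 0.01, SE 0.05, adjusted p = 0.896, and -0.031 under library totals).

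SLC7A11 (ENSG00000151012) is the xCT light chain, which takes up cystine for glutathione in exchange for glutamate. Its libraries held 286, 277 and 294 scaled CPM with TGF-β+CXCL10 and 300.0, 326 and 320.1 with TGF-β. The CXCL10 libraries were the 3 lowest, with no overlap, and 28.1% of members and 22.3% of all genes had groups that did not overlap in either direction. The change of -0.14 (SE 0.05) did not pass in the paired fit (adjusted p = 0.0688) or the unpaired one (0.232). It passed with pairing on replicates 2 and 3 alone, both libraries of replicate 1 being left out (adjusted p = 0.000967). It also passed with pairing and library totals (0.0184), and its adjusted p ranged up to 0.579 over the alternatives.

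The remaining light chains were scarcer. SLC7A6 and SLC7A7, the y+LAT pair that exports arginine and lysine in exchange for neutral amino acids and sodium, averaged 15.6 ± 1.48 and 8.001 ± 0.675 FPKM with CXCL10, against 14.5 ± 1.10 and 10.1 ± 2.05 without it (SD, n = 3 each). SLC7A7 was lower with CXCL10 in each of the 3 pairs but did not pass (change -0.36, SE 0.13, adjusted p = 0.0689). It passed with pairing on replicates 2 and 3 alone, the replicate 1 libraries being left out (adjusted p = 0.0153), or with library totals (0.0397). SLC7A6 had a change of 0.05 (SE 0.07). SLC7A8, the LAT2 chain of epithelia, lay near the limit of measurement, with 20, 17 and 8 counts with CXCL10 and 24, 38 and 29 counts without it. Its groups did not overlap, and its change of -0.91 (SE 0.41) did not pass (adjusted p = 0.152). SLC7A6OS, which lies opposite to SLC7A6, stood at 4.19 FPKM (paired change 0.12, SE 0.13). Strand handling is not known, so reads from any stretch where both genes overlap could be counted for either. The extent of such overlap was not measured.

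The other chains were at the floor of detection. SLC7A10, the light chain Asc-1 for small neutral amino acids, had 0 counts in each CXCL10 library, against 1, 5 and 5 in the TGF-β libraries. SLC3A1 and SLC7A9, which together take back cystine in the renal tubule, had 1 count each over all 6 libraries, and SLC7A13, another partner of SLC3A1 in the tubule, had 0. Per library, 0 counts allow up to 0.192 to 0.234 CPM, for counting error only. In the 5 tested light chains per length, SLC7A5 made up 87.2 ± 0.726% with CXCL10 and 86.4 ± 0.807% without it (SD, n = 3 each). SLC7A11 made up 7.01 ± 0.274% with CXCL10 and 7.72 ± 0.359% without it, with no overlap between the groups. The ratio of summed light chain FPKM to that of SLC3A2 was 1.55 ± 0.0272 with CXCL10 and 1.56 ± 0.0227 without it, a difference smaller than the spread between libraries.

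**Figure D3:**
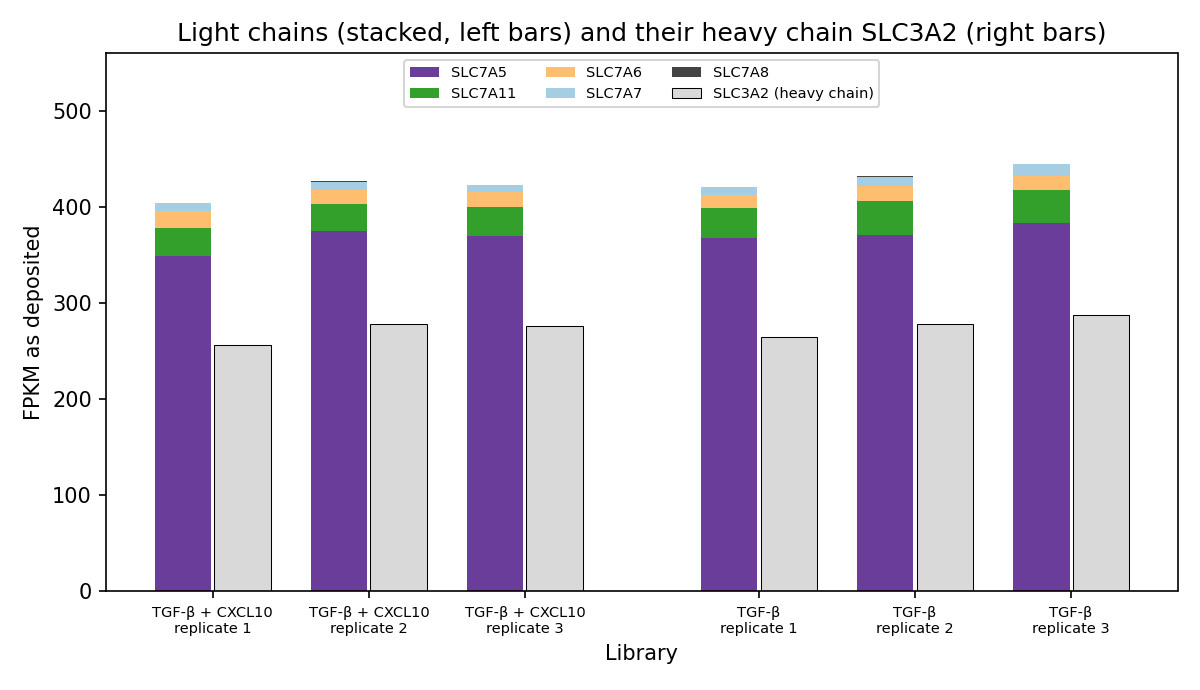
FPKM of the 5 tested SLC3A2 partners, stacked in the left bar of each library, and of the heavy chain SLC3A2 in the right bar. The 3 TGF-β+CXCL10 libraries stand left of the 3 TGF-β libraries. SLC7A5 fills most of every left bar, and the light chain sum exceeds SLC3A2 in each library.

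Among the sodium-coupled SLC38 carriers, 1 of 8 tested genes rose in the paired fit and 0 fell, beside 9.71% and 8.04% of all genes. SLC38A2 (ENSG00000134294), SNAT2, accumulates small neutral amino acids such as alanine and glutamine and is known to be induced when amino acids run short. It had 1593, 1483 and 1509 scaled CPM in the TGF-β+CXCL10 libraries, against 1459, 1311 and 1361 in the TGF-β libraries. All CXCL10 libraries lay above all TGF-β libraries, the nearest being TGF-β replicate 1, and the pairs differed by 0.13, 0.18 and 0.15 (log2). The rise was small, at 0.15 (SE 0.04, paired adjusted p = 0.0208; unpaired 0.204), and was not called without replicate 2 (adjusted p = 0.213), without replicate 3 (0.209), with library totals (0.0580) or in limma-trend on log2(FPKM + 1) (0.113). Its close relative SLC38A1, which carries the same substrates, averaged 274 ± 11.9 scaled CPM with CXCL10 and 275 ± 5.98 without it (SD, n = 3 each; paired log2 change -0.0049, SE 0.05), and without the replicate 1 libraries its paired estimate was 0.05. Whether the changes of SLC38A2 and SLC38A1 differ was not tested.

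The lysosomal SLC38 members did not pass. SLC38A9, which senses arginine in the lysosome and passes the signal to mTOR, averaged 22.3 ± 0.703 scaled CPM with CXCL10 and 24.1 ± 2.23 without it (paired log2 change -0.11, SE 0.10). SLC38A7, which releases glutamine and asparagine from lysosomes, averaged 47.4 ± 2.004 and 51.8 ± 5.24 scaled CPM in the same order (change -0.12, SE 0.07). For both, TGF-β replicate 1 was the lowest TGF-β library, at 21.6 and 45.7 CPM. SLC38A10 had a change of -0.0040 (SE 0.06), SLC38A6 of -0.44 (SE 0.18), SLC38A5 of 0.35 (SE 0.36) and SLC38A4 of -0.01 (SE 0.37), the last of these with 17 to 37 counts a library. SLC38A3, a glutamine carrier of liver and kidney, had 0, 0 and 1 counts with CXCL10 and 2, 5 and 1 without it. SLC38A8 and SLC38A11 had 0 counts in all libraries.

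Of the ASC exchangers, which swap neutral amino acids in the presence of sodium, the scarcer one fell in the paired fit. SLC1A5 (ENSG00000105281), the main glutamine exchanger, had 668, 739.6 and 716 scaled CPM in the TGF-β+CXCL10 libraries, against 735, 728 and 745 in the TGF-β libraries. Only CXCL10 replicates 1 and 3 lay below the TGF-β range, and the change of -0.06 (SE 0.05) did not pass (adjusted p = 0.443). SLC1A4 (ENSG00000115902), ASCT1, carries serine, alanine, cysteine and threonine. It had 100.3, 134 and 126 scaled CPM with TGF-β+CXCL10 and 122, 142 and 156 with TGF-β. The groups overlapped, since TGF-β replicate 1 lay below CXCL10 replicates 2 and 3, but CXCL10 was lower in each pair (differences of -0.28, -0.08 and -0.31). The paired log2 change was -0.23 (SE 0.06, adjusted p = 0.0153; unpaired 0.314), and it was lost without replicate 3 (adjusted p = 0.199), in DESeq2 with pairing (0.0594) and in limma-trend on log2(FPKM + 1) with pairing (0.0868).

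The CAT group, named for cationic amino acids, went both ways. SLC7A1 (ENSG00000139514), CAT1, the general uptake route for arginine and lysine, had 281, 312 and 322 scaled CPM with TGF-β+CXCL10 and 314, 299.6 and 308 with TGF-β. Its groups overlapped, and its paired log2 change was -0.01 (SE 0.05, adjusted p = 0.910). SLC7A2 (ENSG00000003989), CAT2, brings in the same amino acids and is known as an inducible supplier of arginine in activated macrophages. It had 242, 142 and 137 scaled CPM in the TGF-β+CXCL10 libraries, against 141, 110.1 and 105 in the TGF-β libraries. CXCL10 replicate 1 stood far above the others, and TGF-β replicate 1 lay level with CXCL10 replicates 2 and 3. In the paired fit SLC7A2 rose by 0.51 (log2, SE 0.07, adjusted p = 3.14e-04; unpaired 0.190), and by 0.37 without both libraries of replicate 1. On FPKM with limma-trend and pairing it was not called (adjusted p = 0.0539).

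SLC7A4 (ENSG00000099960) showed the largest change among the called transporters. It is similar to the CAT proteins, but cationic amino acid transport by it has not been established. It had 5.84, 17.4 and 14.9 scaled CPM with TGF-β+CXCL10 and 16.6, 35.4 and 39.1 with TGF-β, from 83, 220 and 199 counts with TGF-β+CXCL10 and 235, 568 and 520 with TGF-β. Both replicate 1 libraries were the lowest of their groups, and TGF-β replicate 1 lay between CXCL10 replicates 2 and 3, so that the groups overlapped. Within each pair CXCL10 was lower, with differences of -1.43, -1.004 and -1.36. The paired log2 change was -1.28 (SE 0.11, adjusted p = 1.21e-05; unpaired 0.161). SLC7A4 passed in the 9 fits with pairing that were run, and of 12 alternatives without pairing it passed in 1, the one without TGF-β replicate 1. The remaining members of the group were near absent: SLC7A3 had 0, 0 and 3 counts with CXCL10 and 5, 1 and 6 without it, and SLC7A14 had 1 count in replicate 1 of each group.

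**Figure D4:**
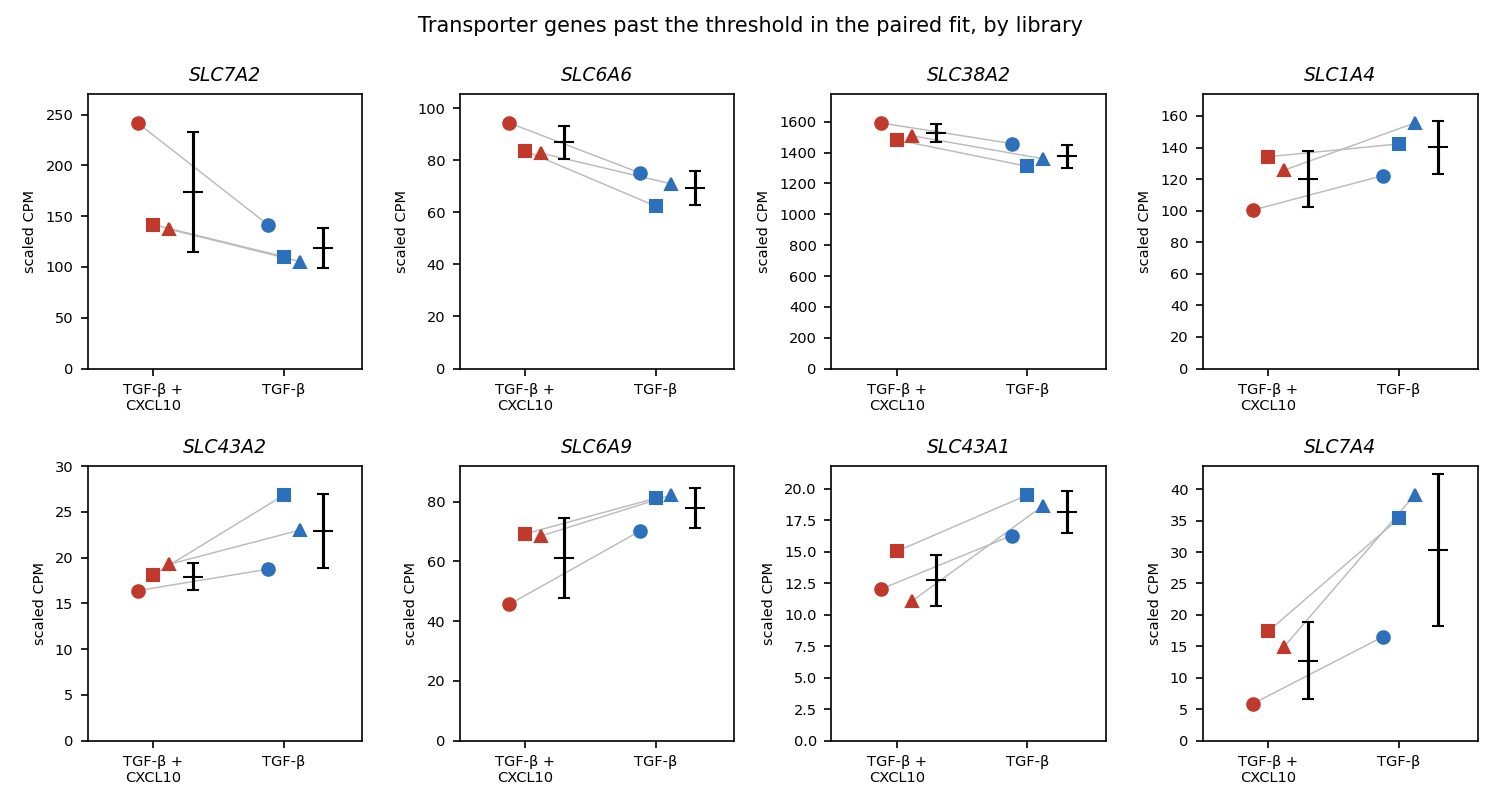
Scaled CPM of the 8 transporter genes called in the paired fit, from the largest rise (SLC7A2) to the largest fall (SLC7A4). In each panel the TGF-β+CXCL10 libraries stand left and the TGF-β libraries right, grey lines join same-numbered libraries, and black bars show mean ± SD (n = 3). In SLC7A2, SLC7A4, SLC1A4 and SLC43A2 the groups overlap while each line slopes the same way.

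The SLC6 members, carriers driven by sodium, also split. SLC6A6 (ENSG00000131389) takes up taurine, an osmolyte. It had 94.4, 83.7 and 82.8 scaled CPM in the TGF-β+CXCL10 libraries, against 75.2, 62.4 and 70.9 in the TGF-β libraries. The groups did not overlap and the pairs differed by 0.33, 0.42 and 0.22, and the paired log2 change was 0.33 (SE 0.06, adjusted p = 0.00275; unpaired 0.161). SLC6A9 (ENSG00000196517), the glycine transporter GlyT1, moved the other way. It had 45.6, 69.2 and 68.5 scaled CPM with TGF-β+CXCL10 and 70.2, 81.2 and 82.3 with TGF-β. The groups did not overlap, though CXCL10 replicates 2 and 3 lay just under TGF-β replicate 1, and the paired log2 change was -0.37 (SE 0.08, adjusted p = 0.00540; unpaired 0.222). SLC6A6 and SLC6A9 were each called in 7 of the 9 fits with pairing, the exceptions being limma-trend on FPKM. SLC6A15, a carrier of branched-chain amino acids and proline, averaged 6.30 ± 1.01 scaled CPM with CXCL10 and 7.91 ± 0.640 without it (change -0.33, SE 0.18), with no overlap and no call. SLC6A17, a carrier of synaptic vesicles, had 0, 2 and 4 counts with CXCL10 and 2, 7 and 5 without it.

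In the SLC43 family both carriers of branched-chain amino acids fell in the paired fit. These uniporters, LAT3 and LAT4, need no heavy chain. SLC43A1 (ENSG00000149150) had 12.02, 15.02 and 11.1 scaled CPM with TGF-β+CXCL10 and 16.3, 19.5 and 18.6 with TGF-β. Its groups did not overlap, and its paired log2 change was -0.52 (SE 0.12, adjusted p = 0.00948; unpaired 0.161). It was not called without replicate 3 (adjusted p = 0.112) or in DESeq2 with pairing (0.0593). SLC43A2 (ENSG00000167703) had 16.4, 18.1 and 19.3 scaled CPM with TGF-β+CXCL10 and 18.7, 26.8 and 22.99 with TGF-β. TGF-β replicate 1 lay inside the CXCL10 range, and the change of -0.34 (SE 0.11) was the weakest call (adjusted p = 0.0431; unpaired 0.208; DESeq2 with pairing 0.222), lost without replicate 2 (0.369) or 3 (0.113) and in limma-trend on log2(FPKM + 1) (0.198). The relative SLC43A3, a purine nucleobase carrier rather than an amino acid one, had a change of -0.15 (SE 0.16).

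Of the glutamate and aspartate carriers edgeR called 0 of 4 tested genes, beside 17.7% of all genes with pairing and 0% without it. In either fit, 0 of them had an unadjusted p under 0.05. SLC1A3 (ENSG00000079215), known from astrocytes as GLAST, had 54.1, 63.7 and 63.6 scaled CPM with TGF-β+CXCL10 and 60.1, 71.4 and 67.4 with TGF-β. It was lower in each pair by a little, and the change of -0.13 (SE 0.06) did not pass (adjusted p = 0.172). SLC1A1, the form of kidney and neurons, averaged 18.96 ± 1.22 scaled CPM with CXCL10 and 17.2 ± 1.91 without it (change 0.14, SE 0.10). SLC1A7 and SLC1A2 had 5 to 27 counts a library, and SLC1A6 had 0 in all 6. The errors of SLC1A7 (change 0.55, SE 0.51) and SLC1A2 (-0.29, SE 0.49) leave their direction unresolved at this depth.

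The tested SLC36 genes, of a family named for proton-coupled transport, did not pass either. SLC36A1 (ENSG00000123643), which moves small neutral amino acids out of lysosomes, had 55.97, 45.5 and 49.01 scaled CPM with TGF-β+CXCL10 and 45.7, 48.4 and 55.4 with TGF-β, in fully overlapping groups (change 0.01, SE 0.09, with a negative sign, -0.034, under library totals). SLC36A4 averaged 18.6 ± 0.211 scaled CPM with CXCL10 and 19.2 ± 0.275 without it (change -0.04, SE 0.10). Its groups did not overlap, while its change was smaller than the SE, and on log2(FPKM + 1) the sign turned to 0.19. SLC36A2 and SLC36A3 had 0 counts in all libraries.

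Summed over the 45 rows, transporter RNA stood at 6282 ± 75.9 scaled CPM with CXCL10 and 6189 ± 98.5 without it (SD, n = 3 each). The SLC38 sum was 2030 ± 36.7 CPM with CXCL10 and 1888 ± 75.3 without it, with SLC38A2 as its main part. The ASC sum was 828 ± 53.9 CPM with CXCL10 and 876 ± 22.1 without it. The total differed by about 1 SD, and its direction depends on the measure. In FPKM it was 1599 ± 26.4 with CXCL10 and 1636 ± 38.4 without it, and as a share of raw counts 0.609% to 0.624% with CXCL10 and 0.619% to 0.638% without it. The SLC38 sums did not overlap between groups in scaled CPM but did in FPKM (451 to 486 with CXCL10 and 433 to 455 without it). The ASC sums overlapped on both scales.

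Genes around the transporters moved as follows in the paired fit, beside the 9.71% of all genes called higher and 8.04% called lower. The lists were chosen with earlier results of these data known, so their counts are no independent test against those shares. Of 9 tested mitochondrial amino acid carriers 1 rose, the glutamate carrier SLC25A22 (0.80, SE 0.13, adjusted p = 0.00117), and 1 fell, the basic amino acid carrier SLC25A29 (-0.58, adjusted p = 0.0356), with a list median of 0.13. Of 4 tested carriers outside the families above, CTNS, the lysosomal cystine exporter, fell (-0.35, adjusted p = 0.0425). TGF-β replicate 1 lay inside the range of the CXCL10 libraries for CTNS, but not for SLC25A22 or SLC25A29. For SLC25A29 it lay just above that range, at 6.76 CPM against 6.72 CPM for CXCL10 replicate 2. Of the 15 carriers listed outside the families above, 8 had 0 counts in all libraries.

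Of 27 tested genes of amino acid sensing at the lysosome 3 rose and 6 fell (median -0.03). The leucine sensor SESN2 averaged 81.6 ± 15.7 scaled CPM with CXCL10 and 119.8 ± 25.5 without it (-0.55, adjusted p = 2.20e-05), and its relative SESN1 fell as well (-0.63, adjusted p = 6.61e-04). The Rag GTPase gene RRAGC fell (-0.47) while RRAGA rose (0.30, adjusted p = 0.00531). For SESN2 TGF-β replicate 1, at 90.4 CPM, lay inside the range of the CXCL10 libraries (63.5 to 92.0 CPM). The same held for RRAGC, but not for SESN1 or RRAGA. For RRAGA TGF-β replicate 1 lay just under the CXCL10 range, at 70.1 CPM against 70.7 CPM for CXCL10 replicate 3. Of 21 enzymes of amino acid synthesis and use 3 rose and 7 fell (median -0.14). Among those that fell were ASS1 (-0.42), which makes the precursor of arginine, and the serine enzymes PSAT1 (-0.37) and PHGDH (-0.31). Of 9 cysteine and glutathione genes 0 rose and 2 fell (median -0.16), GSR (-0.32) and CHAC1 (-0.24), which degrades glutathione. Of the named enzyme and glutathione genes, ASS1, PSAT1 and CHAC1 also had TGF-β replicate 1 inside the CXCL10 range, while PHGDH and GSR did not.

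Of 10 tested regulators of the response to amino acid shortage 6 fell and 1 rose (median -0.25). ATF4, the transcription factor known to drive SLC7A11, SLC7A5 and SLC3A2 among other transporter genes, averaged 377 ± 28.5 scaled CPM with CXCL10 and 437 ± 19.3 without it (-0.22, SE 0.05, adjusted p = 0.00574). SLC7A11, SLC7A5 and SLC3A2 themselves changed by -0.14, 0.01 and 0.01 and were not called. SLC38A2, known to be induced when amino acids run short, rose by 0.15. Any link between ATF4 and these changes was not tested. TRIB3, DDIT3 and NUPR1, which are induced under stress, changed by -0.62, -0.78 and -0.67. TGF-β replicate 1 lay inside the CXCL10 range for TRIB3 (171 CPM, range 104 to 181) and DDIT3 (17.3 CPM, range 12.2 to 19.4). It lay above that range for ATF4 and NUPR1. In edgeR on all 6 libraries without the pairing, 0 genes of these lists passed, as for all genes, and the smallest adjusted p among them was 0.161.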

How the data were processed

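RNeasy was used for extraction and mRNA libraries were prepared with a SMARTer kit, as the labels' protocols state. GRCm38 and mm10 appear in the submitters' processing notes, yet the gene rows are human Ensembl genes. Aligner, counter, annotation and strand setting: not given in the sources used here. Positions and sequences of human genes were not used. The deposited table holds raw counts per gene and FPKM values computed by the authors, the authors' log2 ratio of mean FPKM, and the authors' p-value and adjusted p from an unnamed test.

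Differential expression was computed from the counts by edgeR (4.0.16, under R 4.3.3) with quasi-likelihood F tests after TMM normalization. Genes passed filterByExpr at its minimum count of 10 and minimum total of 15, which left 11970, and adjusted p-values were held to 0.05. Changes are TGF-β+CXCL10 over TGF-β. The SE of an edgeR change is its absolute log2 value over the square root of the F statistic. It therefore restates the F test and is no separate estimate of error. Scaled CPM are counts over the TMM-scaled library size. Alternatives used DESeq2 1.42.0, limma 3.58.1 on log2(FPKM + 1) or log2(FPKM + 0.1), other scalings and filters, and left-out libraries. Fits with pairing that leave out a replicate number rest on 2 pairs, so their p-values lean on the spread shared across genes. The principal fit has no block. Same-numbered libraries deviated together (correlations 0.330, 0.121 and 0.163 across genes). Replicates 2 and 3 crossed gave 0.080 and 0.082, and replicate 1 crossed with them gave -0.223 to -0.165. Deviations from a group mean sum to 0, so a replicate 1 that stands apart in both groups can also give this pattern. The correlations therefore cannot show that the libraries are pairs. The blocked fit, called the paired fit, is given beside the principal fit. No label states this pairing. The labels do not say that replicates are separate cultures, so p-values measure the spread between these libraries, which may be technical. Replicates differed by 2.80 to 18.2 times the sampling noise (chi-square per degree of freedom). Fits were also run on simulated counts with changes of 1 log2 unit in either direction and no library set apart. That setting differs from these data, so it does not show how the fits fare on changes as small as most here. Members and lists were chosen with earlier results of these data known. Members given with a value for each library are those called in either fit, the most abundant of each class, and SLC3A2, SLC7A5 and SLC7A11; of the context lists, up to 4 genes with the lowest p are named. Limits on 0 counts rest on 3 counts and cover counting error only.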

Additional observations from a re-analysis of the deposited data

How the results depend on the processing

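Without pairing, 0 members and 0 of all genes were called under RLE size factors, library totals, no filter, a mean of at least 5 CPM and limma-trend on log2(FPKM + 1); DESeq2 called 0 members and 172 genes higher and 163 lower. With the replicate block, 3 members were higher and 5 lower (1162 and 962 of all genes). DESeq2 with the block gave 3 and 2 (684 and 454), limma-trend 0 and 2 (337 and 352, or 332 and 347 with a pseudocount of 0.1). Chosen after seeing the data, the block with library totals gave 2 and 7 (877 and 1359) and with RLE 3 and 5 (1216 and 968). Leaving out one library gave 0 to 3 members higher and 0 to 5 lower (0 to 1302 and 0 to 1046 of all genes); the highest counts were those without TGF-β replicate 1. With the block, leaving out a replicate number gave 3 and 7 without replicate 1 (1533 and 1313), 2 and 4 without replicate 2 (680 and 561) and 2 and 2 without replicate 3 (539 and 365).

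The member median was -0.05, moving to -0.094 with library totals (with or without the block), -0.12 with no filter, -0.12 on log2(FPKM + 0.1) with the block and -0.11 with the block and no replicate 1, and lay between -0.066 and -0.022 when single libraries were left out.

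None of the 8 paired calls changed sign in any alternative. Estimates near 0 did. Library totals turned SLC7A5 to -0.037, SLC3A2 to -0.031, SLC36A1 to -0.034 and SLC38A4 to -0.026, and with the replicate block SLC7A5 to -0.037, SLC3A2 to -0.031, SLC36A1 to -0.033 and SLC38A4 to -0.058. Limma-trend on log2(FPKM + 1), with or without the block, turned SLC7A5 to -0.037, SLC3A2 to -0.035, SLC36A1 to -0.12, SLC36A4 to 0.19 and SLC38A4 to -0.014, and with a pseudocount of 0.1 SLC7A5 to -0.037, SLC3A2 to -0.035, SLC36A1 to -0.14, SLC36A4 to 0.21 and SLC38A4 to -0.11. The block alone turned SLC38A4 to -0.014, with RLE SLC38A4 to -0.011 and in DESeq2 SLC38A4 to -0.030. Without the block, RLE size factors turned SLC38A10 to 0.0011, DESeq2 SLC38A10 to 0.0010 and no filter SLC38A1 to 0.0063 and SLC38A10 to 0.0086. With the block, leaving out replicate 1 turned SLC7A1 to 0.062, SLC38A1 to 0.051, SLC38A10 to 0.068, SLC36A1 to -0.13, SLC38A4 to -0.095 and SLC1A7 to -0.013, and leaving out replicate 2 SLC7A5 to -0.029, SLC3A2 to -0.017, SLC7A6 to -0.047 and SLC38A4 to -0.33. Leaving out single libraries placed SLC7A5 between -0.011 and 0.037, SLC3A2 between -0.0079 and 0.051, SLC7A1 between -0.049 and 0.046, SLC38A1 between -0.024 and 0.032, SLC38A10 between -0.039 and 0.055, SLC7A6 between -0.0083 and 0.11, SLC36A1 between -0.075 and 0.10, SLC38A4 between -0.29 and 0.28 and SLC1A2 between -0.79 and 0.076. The cause of these shifts was not tested. At the filter of 5 CPM on average, the 5 scarcest tested members were filtered out and have no value.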

Other observations

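For some members the transcript length implied by the ratio of counts to FPKM varied between libraries. The ratio of longest to shortest implied length over the 6 libraries had a median of 1.13 among the 32 tested members and 1.10 among all tested genes, and exceeded 1.5 for 7 members. It was highest for SLC1A2, at 6.63, and was 2.08 for SLC38A5, 1.77 for SLC6A15, 1.75 for SLC7A8, 1.74 for SLC38A4, 1.66 for SLC43A3 and 1.55 for SLC36A4. The log2 ratio of mean FPKM had the opposite sign to the unpaired count fit for 4 of the 32 members. SLC36A4 averaged 7.89 ± 1.30 FPKM with CXCL10 and 6.76 ± 0.381 FPKM without it, while in scaled CPM it was lower with CXCL10.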
